A study of Homo sapiens with 2 samples.

Results

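The SR proteins, the heterogeneous nuclear ribonucleoproteins (hnRNPs) and the kinases that phosphorylate SR proteins were followed in Hep3B hepatoma cells given a plant extract. The genes were taken by symbol: SRSF followed by a number, HNRNP followed by letters, TRA2A and TRA2B, CLK1 to CLK4, SRPK1 and SRPK2, and DYRK1A. Of 43424 symbols in the files, 54 matched, and 47 remained after 5 pseudogenes and 2 non-coding RNAs, HNRNPD-DT and the readthrough HNRNPUL2-BSCL2, were set aside by their RefSeq type. The 47 genes comprised 12 SR proteins, 2 TRA2 genes, 26 hnRNPs and 7 kinases. At least 30 counts over both libraries, the minimum for a ratio, were reached by 41 of them, which included 20 hnRNPs and every gene of the other classes.

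The GLE library came from Hep3B, an established line of human hepatocellular carcinoma, given an extract of Glehnia littoralis (GLE), a coastal plant. The DMSO library came from Hep3B cells given the solvent alone. Both are labelled wild type, with the same treatment tag, and neither dose nor duration for the sequenced cultures was given in the sources used here. Each group had 1 library, made with a kit that reads the 3′ end of polyadenylated RNA, so no test between the groups was possible, and a difference between cultures cannot be told apart from an effect of the extract.

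The GLE library held 3636351 counts and the DMSO library 5618328, and a floor of 3 counts corresponded to 0.848 CPM (the usual per-library scaling of counts, here by effective library size) in the GLE library and 0.519 CPM in the DMSO library. All 10 hepatocyte and hepatoma markers were detected in both, with a summed level of 11553 CPM in the GLE library and 14646 CPM in the DMSO library. Fibroblast markers summed to 16.1 CPM in the GLE library, with 5 of 5 detected, against 3.63 CPM in the DMSO library, with 4 of 5 detected and DCN at 0. Of 4 endothelial markers, VWF, CDH5 and KDR were at 0 in both libraries, and PECAM1 had 1 count in the GLE library and 36 in the DMSO library. Of 4 blood cell markers, CD3E was at 0 in both, and PTPRC had 3 counts in the GLE library and 1 in the DMSO library. CD68 had 96 counts in the GLE library and 117 in the DMSO library. Most of the summed 464 CPM in the GLE library and 490 CPM in the DMSO library came from LYZ. Mitochondrial ribosomal RNA took 13.2% of counts in the GLE library and 8.52% in the DMSO library. The part of this share and of these markers in the results below was not tested. In bulk RNA, fewer cells that make a transcript and less transcript per cell cannot be told apart.

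SR proteins bind exonic enhancers through RNA recognition motifs and recruit the spliceosome through tails rich in arginine and serine, and hnRNPs coat nascent transcripts and often oppose exon inclusion. SRPK kinases phosphorylate SR proteins in the cytoplasm, which promotes their import into the nucleus, and CLK kinases add further phosphates in the nucleus and release SR proteins from nuclear speckles, the stores of splicing factors. Many of these genes control their own messages through poison exons or retained introns. Reads of 3′ ends do not tell such isoforms apart, so the counts below give each gene's polyadenylated RNA and not its productive share.

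The CLK kinases are also called LAMMER kinases, after a motif in the kinase domain, and the codons of that motif are shown because CLK1 had the highest ratio of the measured members and CLK2 to CLK4 are its close relatives. Capitals mark the 18 coding bases of the motif, with 9 bases on either side, from GENCODE release 29 transcripts on GRCh38. They lie on the minus strand at chr2:200854648-200854683 for CLK1, on the minus strand at chr1:155264253-155264288 for CLK2, on the plus strand at chr15:74628616-74628651 for CLK3 and on the minus strand at chr5:178605335-178605370 for CLK4, each within 1 exon.
CLK1: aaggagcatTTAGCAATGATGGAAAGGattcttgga
CLK2: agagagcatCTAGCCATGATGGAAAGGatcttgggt
CLK3: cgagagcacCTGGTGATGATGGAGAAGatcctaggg
CLK4: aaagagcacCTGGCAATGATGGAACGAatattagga
CLK3 carries a variant of the motif, not its named letters, and 6 of its capital bases differ from those of CLK1. Over these 36 bases, CLK2, CLK3 and CLK4 differed from CLK1 at 8, 13 and 9 bases. Over the whole coding sequence CLK1 was 78.1% identical to CLK4, 65.4% to CLK2 and 62.7% to CLK3 at the aligned bases. Among the pairs of members compared, HNRNPA1L2 was closest to its relative, with 98.4% identity to HNRNPA1, so the counts of HNRNPA1L2 are uncertain.

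CLK1, CLK3 and CLK2 were higher in the GLE library, by 1.83- to 4.04-fold, while the sparse CLK4 had a ratio of 1.54 with an interval that held 1. CLK1 was the highest ratio of all 41 measured members. SRPK1, the cytoplasmic SR protein kinase, was 1.59-fold lower. TRA2A and TRA2B, which activate exons with purine-rich enhancers, were 2.15- and 1.62-fold higher. Among the other members, the 12 SR proteins and most hnRNPs lay within 1.5-fold. Of all 11068 measured genes, 19.3% were 1.5-fold higher or more and 21.9% lower by as much, and the counting interval lay above 1 for 27.7% and under 1 for 30.1%, so counts of members are read against these shares.

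CLK1 (chromosome 2, 200853009 to 200864658, GRCh38) had 487 counts or 138 CPM in the GLE library, against 197 counts or 34.1 CPM in the DMSO library. The ratio was 4.04 (95% counting interval 3.42 to 4.79). Clopper-Pearson intervals are used throughout, and they cover counting error only. CLK3 (chromosome 15, 74608372 to 74630201) had 225 counts or 63.6 CPM in the GLE library, against 173 counts or 29.9 CPM in the DMSO library, a ratio of 2.13 (1.74 to 2.61). The 3′ end of CLK3 overlaps EDC3 on the opposite strand, which had 74 counts in the GLE library and 124 in the DMSO library. CLK2 (chromosome 1, 155262868 to 155273504) had 193 counts or 54.6 CPM in the GLE library, against 172 counts or 29.8 CPM in the DMSO library, a ratio of 1.83 (1.49 to 2.27). CLK4 (chromosome 5, 178602664 to 178627050) was the sparsest kinase, with 32 counts in the GLE library and 34 in the DMSO library. Its ratio of 1.54 had an interval of 0.919 to 2.57, so a difference was not detectable at this depth, and the ratio was 1.34 with a trend of ratio with transcript GC content removed, 1.45 when scaled by total counts and 1.49 with the DMSO library thinned to the GLE total.

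Summed over the 4 CLK genes, the level was 265 CPM in the GLE library and 99.7 CPM in the DMSO library, a ratio of 2.66 (2.39 to 2.95). CLK1 made up 52.0% of CLK counts in the GLE library (48.7 to 55.2) and 34.2% in the DMSO library (30.3 to 38.2). The balance of CLK1 to CLK2 was 2.20 times as high in the GLE library (1.68 to 2.89), that of CLK1 to CLK3 1.90 times (1.46 to 2.48) and that of CLK1 to CLK4 2.62 times (1.52 to 4.52). These balances compare counts within a library and do not depend on the scaling between libraries. They can depend on GC content, and they were not recomputed with the GC trend removed. With it removed, the GLE over DMSO ratio was 3.61 for CLK1, 1.93 for CLK2, 2.31 for CLK3 and 1.34 for CLK4. The balance of CLK2 to CLK3 was 0.863 times that in the DMSO library, with an interval of 0.642 to 1.16.

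SRPK1 (chromosome 6, 35832966 to 35921098) had 601 counts or 170.0 CPM in the GLE library, against 1565 counts or 271 CPM in the DMSO library, 1.59-fold lower (1.45 to 1.75). LHFPL5, which overlaps its 3′ end on the opposite strand, had 7 counts in the GLE library and 9 in the DMSO library. SRPK2, its close relative, had 207 counts in the GLE library and 400 in the DMSO library, a ratio of 0.846 (0.712 to 1.003). The end of SRPK2 overlaps KMT2E on the other strand, with 803 counts in the GLE library and 763 in the DMSO library. The summed SRPK level was 229 CPM in the GLE library, against 340.1 CPM in the DMSO library, so the summed CLK level was above the summed SRPK level in the GLE library and below it in the DMSO library. The balance of CLK1 to SRPK1 was 6.43 times as high in the GLE library (5.30 to 7.83). DYRK1A, a dual-specificity kinase that also phosphorylates splicing factors, had 195 counts in the GLE library and 239 in the DMSO library, a ratio of 1.33 (1.10 to 1.62).

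**Figure D1:**
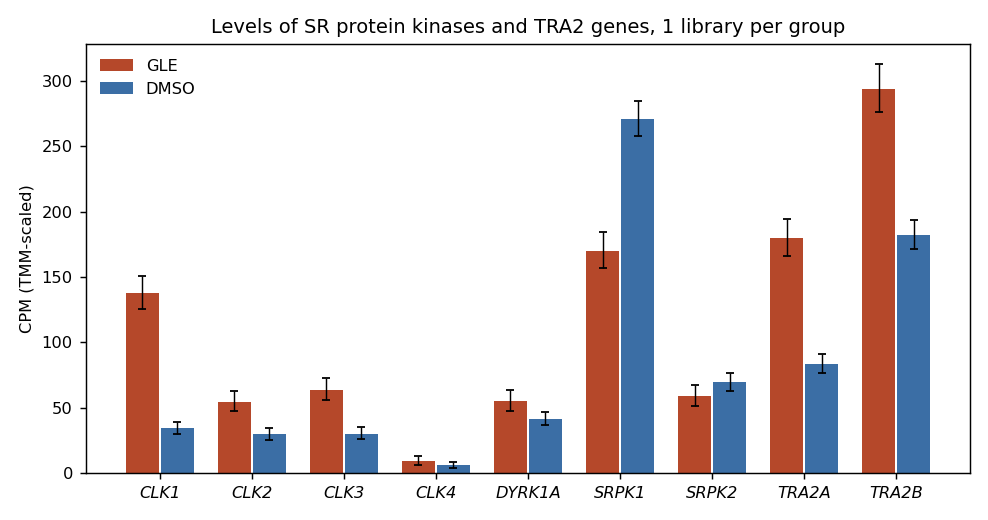
Level of each SR protein kinase and TRA2 gene in CPM, with the GLE library and the DMSO library as bars and exact 95% Poisson intervals of the counts as error bars (1 library per group). CLK1 stands at 138 CPM in the GLE library against 34.1 CPM in the DMSO library, and SRPK1 stands at 170.0 CPM in the GLE library against 271 CPM in the DMSO library.

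The kinases related to these by family were described beside them. Of 10 other CLK, DYRK, HIPK and SRPK family kinases, 7 were measured, 1 passed 1.5-fold upward and 0 downward, around a log2 median of -0.24, the lowest of the 9 other lists. HIPK1 and HIPK3, nuclear kinases that bind homeodomain proteins, were 1.63-fold (1.35 to 1.97) and 1.46-fold (1.19 to 1.80) higher. PRPF4B, a kinase of the spliceosome, had a ratio of 0.891 (0.821 to 0.968), and HIPK2 of 0.844 (0.728 to 0.976). SRPK3 had 0 counts in both libraries.

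The sequence before the start of each CLK gene is shown because 3 of the 4 genes had intervals above 1. The windows are the 250 bases before the annotated RefSeq start on GRCh38.p14, read 5′ to 3′ on the gene's strand, with CpG dinucleotides in capitals. They lie on the minus strand at chr2:200864659-200864908 for CLK1, on the minus strand at chr1:155273505-155273754 for CLK2, on the plus strand at chr15:74608122-74608371 for CLK3 and on the minus strand at chr5:178627051-178627300 for CLK4.
CLK1: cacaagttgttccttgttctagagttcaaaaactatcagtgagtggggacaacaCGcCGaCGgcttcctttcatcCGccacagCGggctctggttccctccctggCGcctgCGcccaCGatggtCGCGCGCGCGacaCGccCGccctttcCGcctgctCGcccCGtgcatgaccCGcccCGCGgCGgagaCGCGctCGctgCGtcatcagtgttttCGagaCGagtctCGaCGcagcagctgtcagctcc
CLK2: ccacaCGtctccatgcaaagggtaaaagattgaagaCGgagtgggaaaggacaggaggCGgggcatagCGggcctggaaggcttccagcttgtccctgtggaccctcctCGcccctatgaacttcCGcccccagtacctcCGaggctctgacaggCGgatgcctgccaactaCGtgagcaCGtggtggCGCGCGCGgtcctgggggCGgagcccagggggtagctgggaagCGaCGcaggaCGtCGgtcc
CLK3: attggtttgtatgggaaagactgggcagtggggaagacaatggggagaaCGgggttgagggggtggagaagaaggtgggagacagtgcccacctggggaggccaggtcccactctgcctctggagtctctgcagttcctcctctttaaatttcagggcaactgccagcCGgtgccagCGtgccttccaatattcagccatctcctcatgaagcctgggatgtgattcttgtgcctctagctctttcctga
CLK4: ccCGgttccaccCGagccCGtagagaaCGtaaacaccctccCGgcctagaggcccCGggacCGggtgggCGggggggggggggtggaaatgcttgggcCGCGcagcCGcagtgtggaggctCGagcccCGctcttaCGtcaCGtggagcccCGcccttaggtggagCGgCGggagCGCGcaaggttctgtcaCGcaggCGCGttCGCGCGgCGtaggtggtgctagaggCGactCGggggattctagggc
CpG numbered 30 in the CLK1 window, 19 in CLK2, 29 in CLK4 and 3 in CLK3. The SRPK1 window, of a gene that was lower, had 25. Windows were found for 38 of the 41 measured members, and 31 of these held at least 15 CpG, against 42.7% of all windows. All windows include those of genes that were not measured, and the share over measured genes alone was not computed, so these shares are not like for like. The windows were searched on both strands for GAANNTTC, the core of the heat shock factor element, for TGATGNAA, the core of the ATF4 element, and for TGACGTCA, the cyclic AMP response element. None of the CLK windows held any of these letters, which says nothing of binding by the factors. GAANNTTC was found in 3 of 42 member windows, those of HNRNPA2B1, HNRNPC and SRSF8, against 5.85% of all windows. TGATGNAA was found in 0 of 42, against 3.19%, and TGACGTCA in 0 of 42, against 1.77%.

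TRA2A (chromosome 7, 23504780 to 23531981) had 635 counts or 180 CPM in the GLE library, against 482 counts or 83.4 CPM in the DMSO library, a ratio of 2.15 (1.91 to 2.43). TRA2B (chromosome 3, 185914558 to 185938014) had 1040 counts or 294 CPM in the GLE library, against 1052 counts or 182 CPM in the DMSO library, a ratio of 1.62 (1.48 to 1.76). Both genes were thus higher, and the balance of TRA2A to TRA2B was 1.33 times as high in the GLE library (1.15 to 1.55). With the GC trend removed, the ratio of TRA2A was 1.95 and that of TRA2B 1.49.

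The 12 classical SR proteins were close to 1 as a class. Their counts summed to 6693 in the GLE library and 9766 in the DMSO library, a ratio of 1.12 (1.09 to 1.16), which was 1.06 when scaled by total counts. None passed 1.5-fold either way, but SRSF1 did so downward with total-count scaling, at 0.644, and with the DMSO library thinned, at 0.664. The interval lay above 1 for 5 and under 1 for 2, and the class median was 0.08 on the log2 scale. SRSF11 was the most abundant and the highest, with 1954 counts in the GLE library and 2306 in the DMSO library, a ratio of 1.38 (1.30 to 1.47). With the GC trend removed the ratio of SRSF11 was 1.25, under that interval, and SRSF4 was then higher, at 1.32. SRSF11 took 29.2% of SR protein counts in the GLE library and 23.6% in the DMSO library.

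SRSF4, SRSF10, SRSF3 and SRSF2 were also above 1. SRSF4 had 417 counts in the GLE library and 541 in the DMSO library, a ratio of 1.26 (1.11 to 1.43). SRSF10, a splicing repressor that is activated by dephosphorylation after heat shock, had 465 counts in the GLE library and 616 in the DMSO library, a ratio of 1.23 (1.09 to 1.39). SRSF3, the smallest classical SR protein and an adaptor of mRNA export, had 1285 counts in the GLE library and 1756 in the DMSO library, a ratio of 1.20 (1.11 to 1.29). SRSF2, a speckle marker known as SC35, had 702 counts in the GLE library and 1014 in the DMSO library, a ratio of 1.13 (1.03 to 1.25).

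SRSF1 and SRSF7 lay on the other side. SRSF1, the founding SR protein and a proto-oncogene, had 335 counts in the GLE library and 804 in the DMSO library, a ratio of 0.681 (0.598 to 0.774), and lay just inside the 1.5-fold limit. SRSF7, an export adaptor like SRSF3, had 355 counts in the GLE library and 700 in the DMSO library, a ratio of 0.829 (0.727 to 0.943). For SRSF5, SRSF6, SRSF8 and SRSF9 the ratios ran from 0.899 to 0.980 with intervals that held 1, and for SRSF12, with 20 counts in the GLE library and 24 in the DMSO library, the ratio was 1.36 (0.713 to 2.57). Close relatives parted within the class. The balance of SRSF3 to SRSF7 was 1.44 times as high in the GLE library (1.24 to 1.68), that of SRSF9 to SRSF1 1.44 times (1.18 to 1.75) and that of SRSF4 to SRSF6 1.32 times (1.11 to 1.57). That of SRSF5 to SRSF6 was 0.943 times, with an interval of 0.786 to 1.13.

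**Figure D2:**
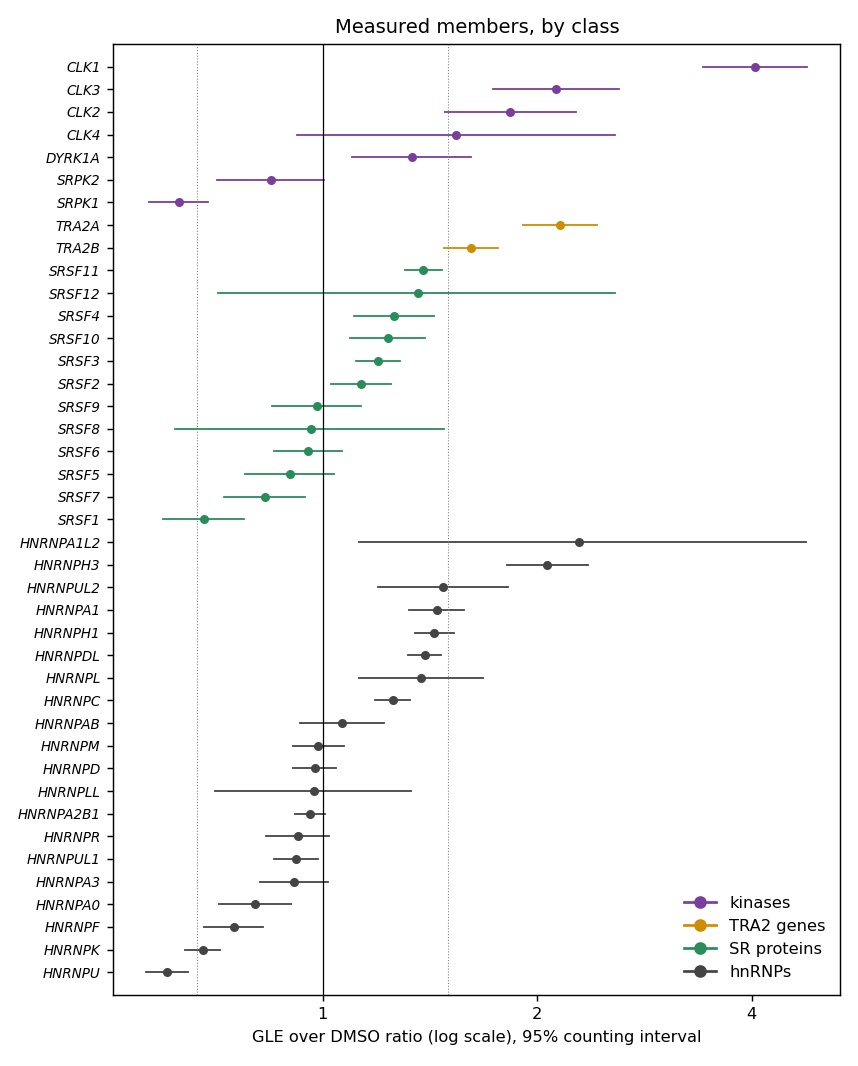
Ratio of GLE over DMSO for each of the 41 measured members on a log scale, grouped by class, with 95% counting intervals as lines, a solid line at 1 and dotted lines at 1.5-fold either way. The points of the 4 CLK genes and both TRA2 genes lie beyond the upper dotted line, with the interval of CLK4 reaching under 1, while the 12 SR proteins lie between the dotted lines.

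The summed hnRNP level was nearly equal in the libraries, while single hnRNPs lay on both sides of 1. Their counts summed to 19680 in the GLE library and 31960 in the DMSO library, 5566 CPM and 5531 CPM, a ratio of 1.01 (0.988 to 1.02). That ratio was 0.951 when scaled by total counts and 0.988 with upper-quartile factors. Of 20 measured hnRNPs, HNRNPH3 and HNRNPA1L2 passed 1.5-fold upward and HNRNPU downward. The interval lay above 1 for 8 and under 1 for 5. Their median was -0.03 on the log2 scale, and 0.01 with the GC trend removed.

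HNRNPH3, a relative of the G-run binding hnRNP H, was the highest hnRNP by the lower end of its interval, with 521 counts in the GLE library and 412 in the DMSO library, a ratio of 2.07 (1.81 to 2.36), which was 1.88 with the GC trend removed and 1.95 with total-count scaling. Its 3′ end overlaps RUFY2 on the opposite strand, with 50 counts in the GLE library and 45 in the DMSO library. HNRNPH1 had 1848 counts in the GLE library and 2106 in the DMSO library, a ratio of 1.43 (1.35 to 1.53). HNRNPF, which binds the same G-runs, had 619 counts in the GLE library and 1349 in the DMSO library, a ratio of 0.750 (0.681 to 0.825). The balance of HNRNPH1 to HNRNPF was therefore 1.91 times as high in the GLE library (1.70 to 2.15), and that of HNRNPH3 to HNRNPH1 1.44 times (1.25 to 1.67).

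HNRNPA1, a repressor of exon inclusion, had 944 counts in the GLE library and 1067 in the DMSO library, a ratio of 1.45 (1.32 to 1.58). HNRNPA2B1, which held the most counts of any member in both libraries, had 2636 in the GLE library and 4489 in the DMSO library, a ratio of 0.960 (0.914 to 1.01). Its ratio fell under that interval with total-count scaling, at 0.907, and with the GC trend removed, at 0.867. HNRNPA3 had 515 counts in the GLE library and 923 in the DMSO library, a ratio of 0.912 (0.817 to 1.02). The balance of HNRNPA1 to HNRNPA2B1 was 1.51 times as high in the GLE library (1.36 to 1.67). HNRNPA1L2, the copy of HNRNPA1 named above, had 21 counts in the GLE library and 15 in the DMSO library, a ratio of 2.29 (1.12 to 4.77).

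HNRNPDL had 2424 counts in the GLE library and 2850 in the DMSO library, a ratio of 1.39 (1.32 to 1.47), while its relative HNRNPD, the AU-rich element binding protein AUF1, had 1283 in the GLE library and 2150 in the DMSO library, a ratio of 0.975 (0.909 to 1.05). HNRNPC, which binds uridine tracts, had 2058 counts in the GLE library and 2683 in the DMSO library, a ratio of 1.25 (1.18 to 1.33). HNRNPL, which binds CA repeats, had a ratio of 1.37 (1.12 to 1.68) from 185 counts in the GLE library and 220 in the DMSO library, and its paralog HNRNPLL a ratio of 0.972 (0.705 to 1.33).

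HNRNPU and HNRNPK were the lowest of the abundant hnRNPs. HNRNPU, a scaffold protein that binds chromatin and RNA, had 1163 counts in the GLE library and 3140 in the DMSO library, 1.65-fold lower (1.54 to 1.77). Its 3′ end overlaps COX20 on the opposite strand, with 290 counts in the GLE library and 573 in the DMSO library. HNRNPK, a poly(C) binding protein, had 1687 counts in the GLE library and 4065 in the DMSO library, a ratio of 0.678 (0.640 to 0.718). HNRNPK passed 1.5-fold downward with total-count scaling, at 0.641, with upper-quartile factors, at 0.666, and with the GC trend removed, at 0.617. HNRNPUL2 and HNRNPUL1, the relatives of HNRNPU, had ratios of 1.47 (1.19 to 1.82) and 0.918 (0.855 to 0.985), and the balance of HNRNPUL2 to HNRNPU was 2.43 times as high in the GLE library (1.95 to 3.04). HNRNPUL2 passed 1.5-fold upward with the GC trend removed, at 1.51, and with the DMSO library thinned, at 1.62.

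HNRNPA0, which binds AU-rich elements, had 439 counts in the GLE library and 893 in the DMSO library, a ratio of 0.803 (0.715 to 0.902). HNRNPAB, HNRNPM and HNRNPR had ratios of 1.06, 0.986 and 0.923, with intervals that held 1. The 6 hnRNPs below the minimum were HNRNPH2, with 0 counts in the GLE library and 4 in the DMSO library, HNRNPA1L3, with 11 in the GLE library and 5 in the DMSO library, HNRNPCL1, with 1 in the GLE library and 0 in the DMSO library, and HNRNPCL2, HNRNPCL3 and HNRNPCL4, with 0 in both. The readthrough RPL36A-HNRNPH2, whose exons overlap HNRNPH2, had 0 counts in both.

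**Figure D3:**
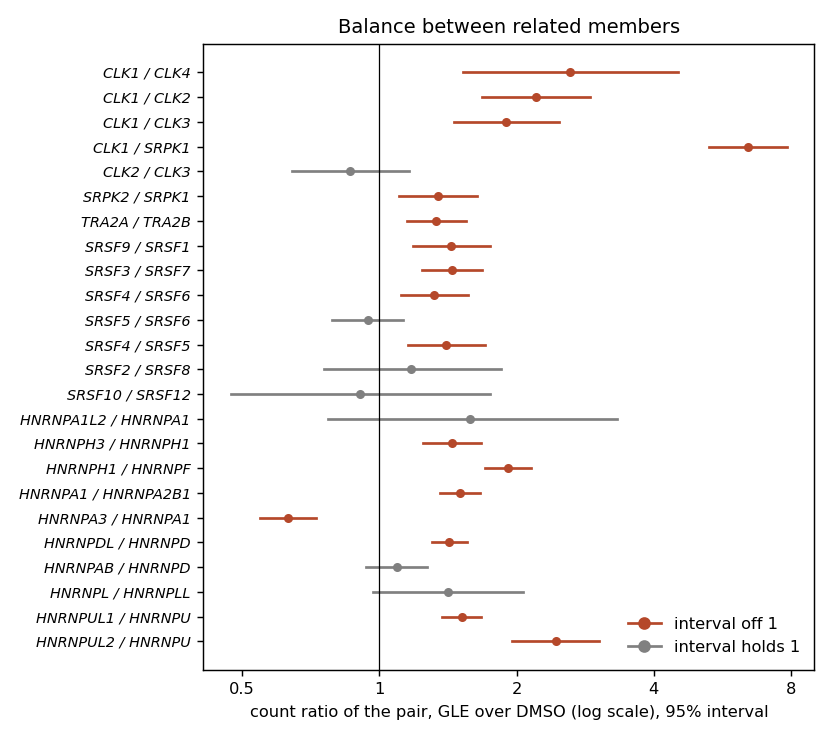
For 24 pairs of related members, the count ratio of the first gene to the second in the GLE library over that in the DMSO library, on a log scale with exact 95% conditional intervals. Pairs whose interval lay off 1 are red. The pairs were chosen with the values known and reuse genes, so the number in red has no background to be read against, and the balance of CLK1 to SRPK1 is the highest drawn, at 6.43.

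Over all 41 measured members, 8 were at least 1.5-fold higher, or 19.5%, against 19.3% of all 11068 measured genes, so the share of higher members was that of the background. Those 8 were the 4 CLK and both TRA2 genes with HNRNPH3 and HNRNPA1L2, and the interval of CLK4 held 1. Only SRPK1 and HNRNPU were at least 1.5-fold lower, or 4.88%, against 21.9% of all measured genes. At least 2-fold higher values were found for 5 members, or 12.2%, against a background of 9.54% (3 with the GC trend removed, and 1, CLK1, with the whole interval past 2-fold), and at least 2-fold lower values for 0, against 10.5%. Members held more counts than most genes, with a median of 1139 over both libraries against 244, and ratios of genes with few counts scatter more. Among genes with at least 300 counts, 6 of 36 members passed 1.5-fold upward and 2 downward, against 13.8% and 14.3% of all 4838 such genes. At 2-fold the members had 4 higher and 0 lower, against 4.92% and 4.34%.

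The counting interval lay above 1 for 19 members, or 46.3%, against 27.7% of all measured genes, and below 1 for 8, or 19.5%, against 30.1%. Among genes with at least 300 counts these shares were 50% above and 22.2% below for the members, and 32.6% and 35.1% for all. The median log2 ratio of the members was 0.18, against -0.04 over all measured genes. Without the CLK and TRA2 genes, all of which were at least 1.5-fold higher, it was -0.03. Of the 35 measured members then left, 40% still had the interval above 1 and 22.9% below. Scaling by total counts left 18 members with the interval above 1 and 14 below, and gave 7 members at least 1.5-fold higher and 4 lower.

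**Figure D4:**
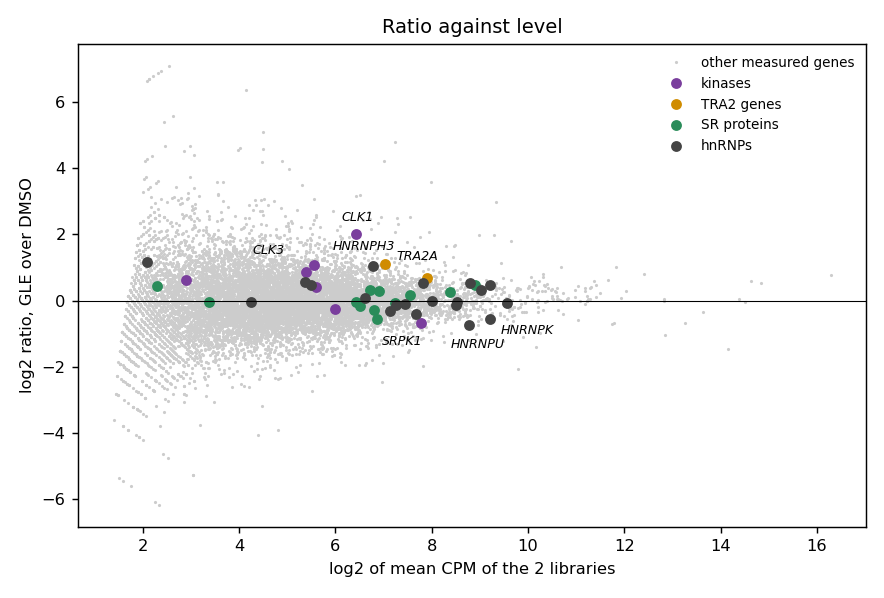
The log2 ratio of GLE over DMSO (0.5 added to each count) against the log2 of the mean CPM of both libraries, with members coloured by class over all other measured genes in grey. Most members lie to the right, among genes with many counts, where the grey cloud is narrow, and CLK1 lies toward its upper edge at 2.01.

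Other genes of the splicing pathway were described from 9 lists, chosen like the members with earlier results of these data known. The counts below stand against 19.3% of all measured genes past 1.5-fold upward and 21.9% downward. That background is not matched for depth. Median counts over both libraries ran from 381 to 1654.5 across the lists, against 244 for all measured genes. Among genes with at least 300 counts the shares were 13.8% and 14.3%, and the lists were not recounted at that minimum. Genes of SR-related and nuclear speckle proteins had 10 of 30 past 1.5-fold upward, 1 downward and a log2 median of 0.36. RSRC2, a protein with a serine- and arginine-rich tail, had 2859 counts in the GLE library and 1175 in the DMSO library, a ratio of 3.98 (3.71 to 4.26). CCNL1, the cyclin L1 partner of CDK11 in splicing, had 1208 in the GLE library and 522 in the DMSO library, a ratio of 3.78 (3.41 to 4.20). RSRP1 had 447 in the GLE library and 209 in the DMSO library, a ratio of 3.49 (2.96 to 4.14). These 3 genes had ratios close to that of CLK1, all within its counting interval.

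In the same list NEAT1, the long RNA that builds paraspeckles, was 2.34-fold lower (2.21 to 2.48), with 1520 counts in the GLE library and 5818 in the DMSO library. ARGLU1 and THRAP3, which also reside in speckles, had ratios of 0.842 (0.777 to 0.913) and 0.885 (0.810 to 0.966). The exon junction complex and nonsense-mediated decay list had 5 of 15 past 1.5-fold upward and 2 downward, and its log2 median was 0.52. EIF4A3, the helicase that anchors the junction complex, was 2.08-fold (1.88 to 2.31), SMG8 2.04-fold (1.70 to 2.45) and UPF2 1.74-fold (1.49 to 2.04) higher. SMG5 and MAGOHB were 1.72-fold (1.28 to 2.33) and 1.65-fold (1.25 to 2.20) lower.

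Factors of SR protein import and mRNA export had 5 of 14 measured genes past 1.5-fold upward and 0 downward, and the log2 median was 0.23. NXF1, the principal export receptor of messenger RNA, had 631 counts in the GLE library and 162 in the DMSO library, a ratio of 6.36 (5.35 to 7.61). THOC1 was 2.03-fold (1.64 to 2.53) and TNPO1 1.63-fold (1.51 to 1.76) higher, while THOC2 and DDX39A had ratios of 0.743 (0.685 to 0.805) and 0.786 (0.699 to 0.883).

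Of 14 measured Sm and LSm genes, the core of the spliceosomal particles, 0 passed 1.5-fold upward and 1 downward, around a log2 median of 0.02. SNRPD2 had a ratio of 1.32 (1.22 to 1.43), SNRPD3 of 0.777 (0.702 to 0.860) and LSM6 of 0.636 (0.439 to 0.909). LSM8 and SNRPB stood at 1.32 (1.06 to 1.65) and 1.06 (1.01 to 1.13). U1 particle and 5′ splice site genes had 1 of 10 past 1.5-fold upward and 0 downward, around a log2 median of 0.15, led by RBM25 at 1.44 (1.34 to 1.54), TIAL1 at 1.504 (1.31 to 1.73) and PRPF39 at 1.45 (1.22 to 1.73), with LUC7L3 at 0.831 (0.774 to 0.893). U2 particle and 3′ splice site genes had 3 of 21 past 1.5-fold upward and 0 downward, around 0.26. SF1, the branch point binding protein, was 2.20-fold (2.01 to 2.42), SF3B4 2.01-fold (1.80 to 2.25) and SNRPA1 1.84-fold (1.38 to 2.47) higher, and SF3B5 had a ratio of 0.855 (0.784 to 0.933).

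Genes of the tri-snRNP, the NTC and the catalytic helicases had 8 of 31 past 1.5-fold upward and 1 downward, around a log2 median of 0.33. SNRNP40 was 5.60-fold higher (3.04 to 11.003) from 48 counts in the GLE library and 14 in the DMSO library. BCAS2 was 3.01-fold (2.27 to 4.03) and SLU7, which selects the 3′ splice site, 2.45-fold (2.15 to 2.79) higher. EFTUD2, the GTPase of the U5 particle, was 1.79-fold lower (1.52 to 2.13), and AQR and SNRNP200 had ratios of 0.732 (0.606 to 0.880) and 0.819 (0.753 to 0.890).

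The other RNA-binding regulators lay on both sides, like the hnRNPs, with 2 of 36 past 1.5-fold upward and 4 downward, around a log2 median of 0.04. EWSR1 was 1.83-fold higher (1.62 to 2.07), and RBM39 and MATR3 had ratios of 1.36 (1.28 to 1.44) and 1.34 (1.22 to 1.47). RBM4 was 6.34-fold (3.66 to 11.9), MBNL3 2.11-fold (1.90 to 2.35) and TARDBP, which encodes TDP-43, 1.51-fold (1.32 to 1.73) lower. RBM4 had 14 counts in the GLE library and 145 in the DMSO library, and the readthrough RBM14-RBM4 had 0 in both.

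**Figure D5:**
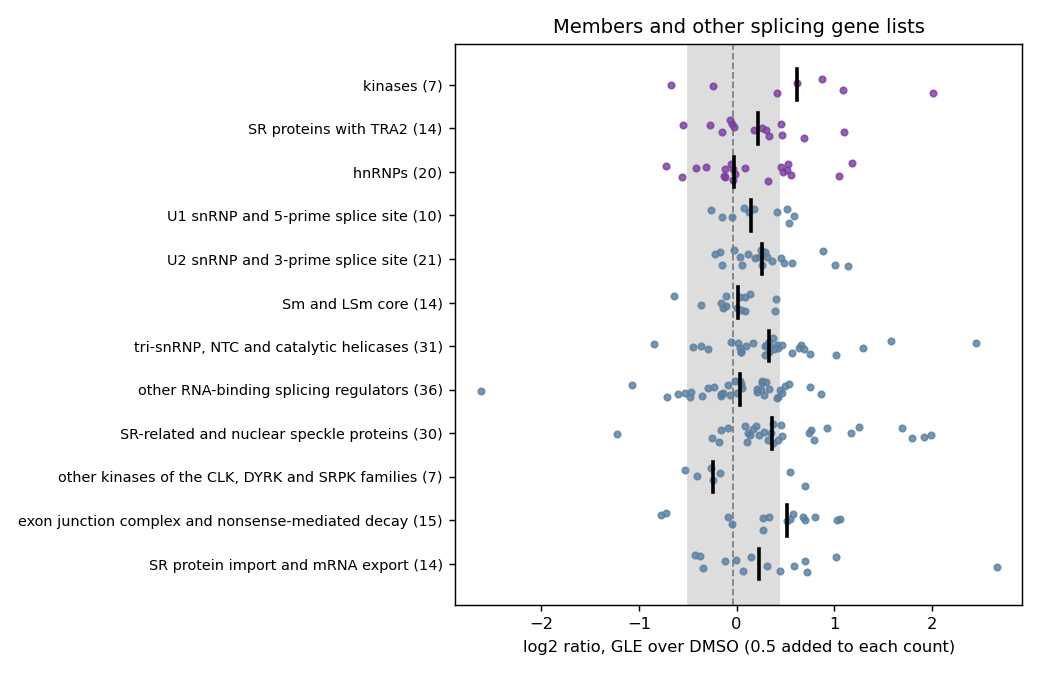
The log2 ratio of GLE over DMSO for each measured gene of the 3 member classes (purple) and of 9 other splicing lists (blue), with the number measured in brackets and a black bar at each median. The grey band spans the middle 50% of all measured genes and the dashed line is their median, -0.04. The kinase median of 0.62 lies beyond the band, while the hnRNP median of -0.03 lies at its centre. That kinase median is the value of CLK4, whose counting interval held 1. With the GC trend removed the kinase median was 0.427, against an upper edge of 0.432 for the band, which is drawn without that removal.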

How the data were processed

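For each library the authors deposited whole-number counts by gene symbol, not normalized. The submitters' processing notes name fastp, STAR, HTSeq and GRCh38. Their versions, the annotation and the strand setting were not given in the sources used here, so reads of overlapping or antisense genes cannot be told apart, and 10 measured members share their last 500 bases with another gene of the files. Each library was prepared from 500 ng of RNA with a Lexogen QuantSeq kit, per the labels' protocols.

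CPM used edgeR 4.0.16 effective library sizes (TMM) under R 4.3.3, with factors of 0.972 for the GLE library and 1.03 for the DMSO library. Each GLE over DMSO ratio carries a 95% interval, converted from the exact (Clopper-Pearson) limits on the fraction of its counts found in GLE, and levels had exact Poisson intervals. PCR copies were not marked by molecular identifiers, so copies may be counted as separate reads and the intervals may be too narrow. Intervals and floor cover counting error only, and not the spread between cultures, which 1 library per group cannot give. A ratio past 1.5-fold or 2-fold was counted as called, with no test, and 0.5 was added before taking log2. Balances between related members had conditional odds ratio intervals (SciPy 1.17.1, Python 3.11.15). The computation was run on simulated Poisson counts with set folds. Such counts hold counting error only, so that run checks the arithmetic and not PCR copies or the spread between cultures. Levels were not divided by length, because the kit gives 1 tag per transcript.

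The members and the lists were chosen with earlier results of these data known. Named were all kinases and TRA2 genes, the 6 highest and 6 lowest SR proteins and hnRNPs, and up to 3 genes on either side of each other list, all by the end of the interval nearest to 1. The other members are given with them. The pairs, the 300-count minimum and the CpG count were chosen after seeing the data. Alternatives were total-count, DESeq2 1.42.0, upper-quartile and median-centred scaling, sizes computed after dropping mitochondrial genes and the top 20 genes, minimums of 1, 10 and 100 counts, 2 added before the logarithm, thinning of the DMSO library, a whole-interval criterion and, chosen after seeing the data, subtraction of the dependence of log2 ratios on transcript GC (lowess span 0.3, statsmodels 0.14.6). Figures were drawn with matplotlib 3.10.9. Promoter and gene coordinates are from RefSeq, GRCh38.p14, and 42739 of 43424 symbols matched its gene table.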

Additional observations from a re-analysis of the deposited data

How the results depend on the processing

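Of 447 recomputed member ratios 440 lay within the member's counting interval, and no called member reversed. That total includes ratios that could not move, because neither the minimum nor the count added before the logarithm enters a ratio. The 7 ratios that moved came from the other settings. They were those of HNRNPA2B1 and HNRNPDL with total-count scaling, and of HNRNPA2B1, HNRNPDL, HNRNPK, HNRNPU and SRSF11 with the GC trend removed. The median log2 ratio ranged from 0.09 to 0.22 for all members, from 0.43 to 0.65 for kinases and, across 0, from -0.11 to 0.01 for hnRNPs. Scaling by total counts gave 4 members at least 1.5-fold lower, 14 with the interval below 1, a summed ratio of 1.06 for SR proteins and of 0.951 for hnRNPs. The hnRNP sum was 0.988 with upper-quartile factors and 1.03 with the median centred. Without a minimum, 1 member, HNRNPH2, was at least 2-fold lower. Requiring the whole interval beyond the fold left 4 members beyond 1.5-fold higher, 1 lower and 1 beyond 2-fold higher. With the GC trend removed, 3 members were at least 2-fold higher and CLK4 had a ratio of 1.34; the cause of these shifts was not tested. CLK1 ranged from 3.61 to 4.12 over all settings. Members with fewer than 100 counts, CLK4, SRSF8, SRSF12 and HNRNPA1L2, are limited by depth. No paired analysis was possible because each group had 1 library.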

Other observations

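Among symbols set aside by the rule, the pseudogenes HNRNPA1P10, HNRNPA3P1 and HNRNPKP3 had 0, 2 and 0 counts in the GLE library, against 4, 0 and 1 in the DMSO library, and HNRNPA1P33 and SRSF3P2 had 0 in both. HNRNPD-DT, a transcript that diverges from the HNRNPD start, had 3 counts in the GLE library and 0 in the DMSO library.

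Several splicing genes of the other lists were below the 30-count minimum. U2AF1, the small subunit that reads the 3′ splice site and has a near-identical copy in the reference genome, had 5 counts in the GLE library and 0 in the DMSO library. DYRK3, a kinase that dissolves speckles in mitosis, had 1 in the GLE library and 17 in the DMSO library. LUC7L2, with 3 in each library, shares exons with the readthrough FMC1-LUC7L2, which had 0 in both, and DDX39B had 0 in both.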
